A study of Mus musculus with 6 samples.

Results

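The genes described here are 10 components of the circadian clock, namely Per1, Per2, Per3, Cry1, Cry2, Nr1d1, Nr1d2, Dbp, Tef and Clock. They were taken by gene symbol from the deposited tables, and all 10 were found among the 35415 genes listed. The tissue was the lateral septum (LS) of wild-type female C57BL/6 mice, which arrived at about 8 weeks of age. The olanzapine group ate chow with olanzapine, an antipsychotic drug, at 50 mg per kg of feed for 12 weeks, and the control group ate control chow for the same time. RNA of 3 mice was combined into each RNA-seq library, with 3 such pools per group, so n = 3 pools per group throughout and the spread between single mice is unknown. The mice lived in a cycle of 12 hours of light, and the hour at which the tissue was taken is not given in the sources used here.

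The clock is a loop of transcription found in nearly every cell. CLOCK and its partner BMAL1, the product of Arntl, switch on the Per and Cry genes through E-box sequences, and the PER and CRY proteins return to the nucleus and repress them. The receptors REV-ERBα (Nr1d1) and REV-ERBβ (Nr1d2) form a second arm that represses Arntl, while DBP and TEF carry the rhythm to output genes through D-box sequences. The central pacemaker is the suprachiasmatic nucleus of the hypothalamus, and other brain regions hold clocks of their own, so the level of a clock transcript depends on the hour of sampling.

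On GRCm38 the genes lie apart from each other except that Per1 and Nr1d1 share a chromosome. Per1 spans chr11:69095217-69109960, Dbp chr7:45705088-45710203 and Tef chr15:81802421-81826863, all on the plus strand. On the minus strand Per2 spans chr1:91415982-91459324, Per3 chr4:151003652-151044665, Cry1 chr10:85131700-85185064, Cry2 chr2:92403646-92434043, Nr1d1 chr11:98767932-98775333, Nr1d2 chr14:18204054-18239127 and Clock chr5:76209868-76304792. Counts are per gene, over its exons, so no isoform is told apart.

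The clock motifs near the transcription starts are shown first, as the letters through which clock factors are known to act. RefSeq promoters on build GRCm38, from 250 bases before to 50 bases after each start, were present for 9 of the 10 genes, and the entry missing was that of Per2. The E-box CACGTG, which reads the same on both strands, was found in Per1, Cry1 and Tef, that is in 3 of 9 genes, and in 8.09% of all 27025 genes with a promoter. The related E'-box CACGTT, on either strand, was found in Cry1, Cry2 and Nr1d1 and in 5.44% of all genes. The D-box TTATGTAA, on either strand, was found in Per3 and in 1.11% of all genes. The half-site AGGTCA of the ROR and REV-ERB receptors was found in Per1, Nr1d2 and Clock and in 18.1% of all genes. The cAMP response element TGACGTCA was in no window of these 9 genes and in 2.03% of all genes. Per1 and Tef had 2 windows each and Clock had 3. A match is a description of letters in the window, not a measured site. Capitals mark the motif, and each line runs 5′ to 3′ along the strand of the gene.
Per1, E-box 166 bases before the start, chr11:69098756-69098815, plus strand: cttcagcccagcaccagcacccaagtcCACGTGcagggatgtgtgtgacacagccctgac
Cry1, E-box 60 bases before the start, chr10:85185082-85185141, minus strand: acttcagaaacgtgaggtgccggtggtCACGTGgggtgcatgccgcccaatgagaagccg
Tef, E-box 127 bases before the start, chr15:81802519-81802578, plus strand: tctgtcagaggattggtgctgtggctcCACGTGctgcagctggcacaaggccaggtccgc
Nr1d1, E'-box 28 bases before the start, chr11:98775373-98775432, minus strand: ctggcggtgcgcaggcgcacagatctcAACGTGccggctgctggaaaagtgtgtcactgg
Per3, D-box 205 bases before the start, chr4:151044836-151044897, minus strand: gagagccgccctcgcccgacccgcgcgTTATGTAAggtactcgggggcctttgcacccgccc
Per3, D-box 158 bases before the start, chr4:151044789-151044850, minus strand: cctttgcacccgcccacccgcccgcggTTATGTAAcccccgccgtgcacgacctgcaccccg
Per1 carried the E-box at 1 of its 2 listed starts, Tef carried one at both of its starts, and Per3 carried the D-box at 2 places before a single start. In Cry1 the E'-box lay 79 bases before the start, so that it stands in lower case in the line above as aacgtg.

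The counts on genes summed to between 38208153 and 39868872 per library. Each of the 10 clock genes had a mean of 960 to 11705 counts over the 6 pools, so counting error was small beside the spread between pools. All 11 septal and GABA neuron markers were present, with a summed level of 2562 to 3211 CPM (counts scaled to the size of the library) in the control pools and 2163 to 2848 CPM in the olanzapine pools. Of these 11, 9 had a negative log2 fold change, with a median of -0.25, and 4 had an unadjusted p under 0.05, all lower, against 8.40% of all genes. None had an adjusted p under 0.05 in edgeR. The 7 markers of the suprachiasmatic nucleus summed to 7.88 to 10.8 CPM in 5 pools and to 28.4 CPM in olanzapine pool 1. In that pool the neuropeptide genes Vip and Grp had 18.6 and 4.51 CPM, the highest of the 6 pools. Avp, Nms, Prok2, Lhx1 and Six6 there lay within the range of the other pools. Olanzapine pool 1 stood apart in cortical glutamatergic markers too, at 897 CPM against 52.0 to 119 CPM in the other pools. Choroid plexus markers ranged from 67.4 to 7634 CPM and striatal markers from 809 to 1714 CPM across pools of both groups. Other gene groups moved with the diet. All 10 hepatocyte markers rose, from sums of 11.6 to 19.9 CPM in the control pools to 222 to 277 CPM in the olanzapine pools, against 1.83% of all genes called higher. Of 7 long noncoding RNAs kept in the nucleus, 5 rose, against the same 1.83%, and the sum of the 7 went from 2270 to 2818 CPM up to 5082 to 6157 CPM. Their part in the clock gene values was not tested, and in bulk tissue fewer cells of a type and less RNA per cell cannot be told apart.

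None of the 10 clock genes passed the test between the olanzapine and control groups. Levels are given as CPM after TMM normalization, which scales libraries to a common set of genes, and always in the order of pools 1, 2 and 3. Benjamini-Hochberg adjustment ran over all 17255 genes tested with edgeR's quasi-likelihood test, and a gene was called at an adjusted p under 0.05. With that rule 2.32% of all genes were called, 1.83% higher and 0.493% lower in the olanzapine group, and 1.01% were called with a log2 fold change beyond 1. Of the 10 clock genes 0 were called, as was also the case with limma on log2 FPKM and with DESeq2, which called 5.79% of the 18935 genes it gave an adjusted p. At an unadjusted p under 0.05 there were 2 of the 10, Per1 and Per2, both with higher means in the olanzapine group, against 17.6% of all genes, 9.19% higher and 8.40% lower. In none of the 10 did the 3 olanzapine pools lie entirely above or below the 3 control pools, a separation shown by 24.3% of all genes, 13.3% higher and 11.0% lower. The median log2 fold change of olanzapine against control (log2FC) of the 10 was 0.08, against 0.00 for all tested genes, and the median size without regard to sign was 0.11 against 0.16. These values are no evidence that the clock genes did not differ, and the width of each interval is given below.

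**Figure D1:**
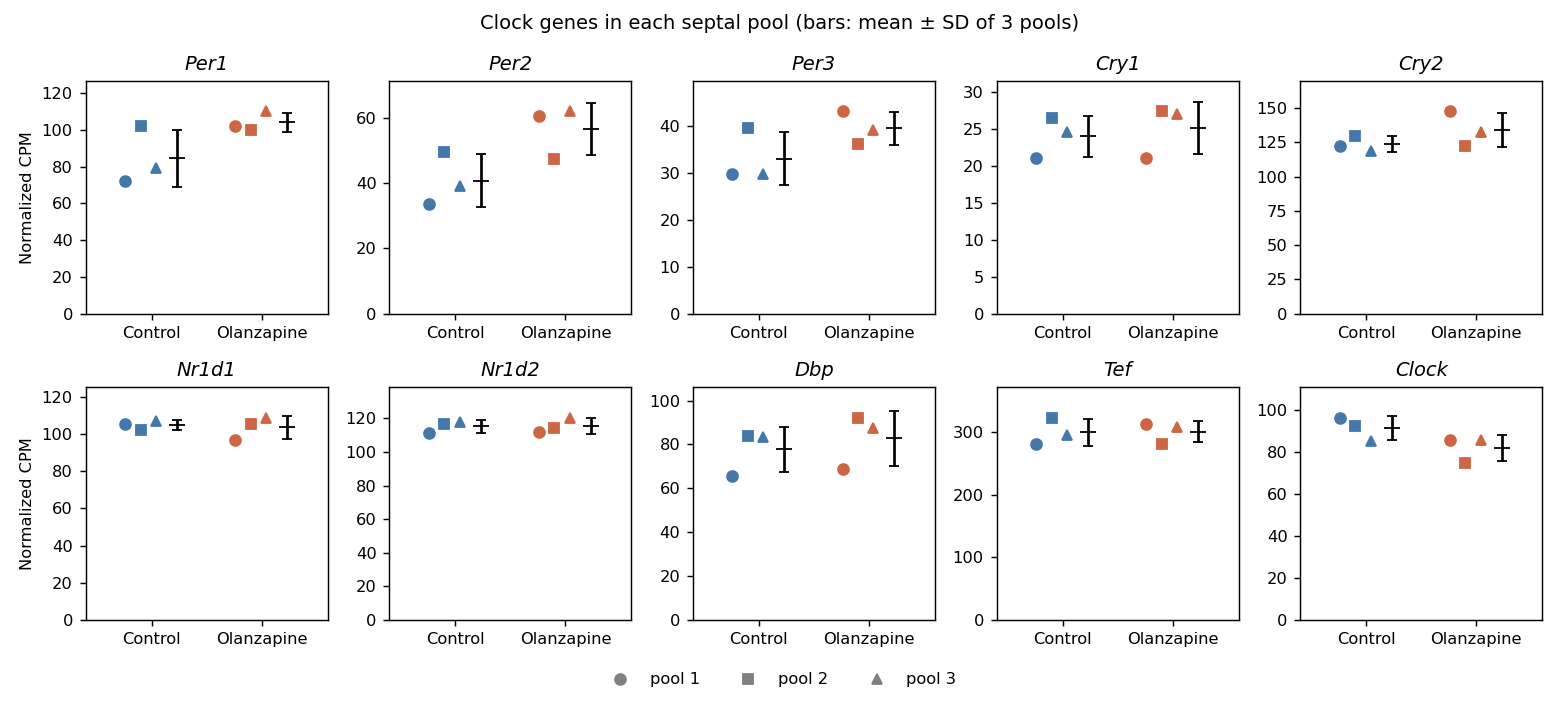
Normalized CPM of the 10 clock genes (y axis, linear from 0) in each of 3 control pools and 3 olanzapine pools, with black bars for the mean ± SD of 3 pools. The groups overlapped in every panel, most narrowly in Per1, Per2 and Clock, and Nr1d1 and Nr1d2 kept nearly the same level in all 6 pools.

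The Per genes encode repressors, and the transcripts of Per1 and Per2 also respond to cAMP and to neuronal activity. Per2 had the largest log2FC of the 10 genes. Its level was 33.5, 49.4 and 39.1 CPM across the control pools and 60.3, 47.4 and 61.9 CPM across the olanzapine pools. Olanzapine pools 1 and 3 lay above every control pool, and olanzapine pool 2 lay just under control pool 2. The mean was 40.7 ± 8.08 CPM (SD, n = 3) for control pools and 56.6 ± 7.95 CPM (SD, n = 3) for olanzapine pools. The log2FC, here and below given ± its standard error, was 0.47 ± 0.16 with a 95% interval of 0.11 to 0.84, that is 1.08-fold to 1.78-fold (edgeR, unadjusted p = 0.0162, adjusted p = 0.172). Over the 15 alternatives the adjusted p ranged from 0.0598, in DESeq2, to 0.378.

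Per1 had 72.3, 102 and 79.2 CPM across the control pools and 102, 100.05 and 109.97 CPM across the olanzapine pools. Control pool 2 reached the level of the olanzapine pools, and the other 2 control pools lay below all of them. Its log2FC was 0.30 ± 0.13, with an interval of 0.01 to 0.59 (edgeR, adjusted p = 0.267). Per3, the third member, had 29.8, 39.5 and 29.7 CPM in the control pools and 43.1, 36.1 and 39.1 CPM in the olanzapine pools. The same control pool 2 overlapped the olanzapine pools here, and the log2FC was 0.26, with an interval of -0.04 to 0.55 (edgeR, adjusted p = 0.342). Without control pool 2 the log2FCs of Per1, Per2 and Per3 were 0.46, 0.64 and 0.41, and without control pool 1 they were 0.20, 0.35 and 0.19. None of the 3 was called in any of these fits.

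Immediate early genes and glucocorticoid targets, which share inducers with Per1 and Per2, were read in the same pools. Of 10 immediate early genes, which neurons switch on within minutes of activity, all 10 had a positive log2FC and 1 was called, against 1.83% of all genes called higher. That gene was Npas4, an activity-dependent transcription factor. Npas4 rose from 12.1, 18.0 and 12.5 CPM in the control pools to 34.3, 27.5 and 32.2 CPM in the olanzapine pools, a log2FC of 1.14 (edgeR, adjusted p = 0.0155). The summed immediate early level was 385 to 546 CPM in the control pools and 998, 546 and 604 CPM across the olanzapine pools, the highest being pool 1, which also had the high cortical markers. Of 9 genes raised by glucocorticoid receptors, 3 had an unadjusted p under 0.05, namely Zbtb16, Cdkn1a and Errfi1. All 3 had higher means in the olanzapine group, against 9.19% of all genes, and the lowest adjusted p was 0.0576 (edgeR). The log2FCs of Fkbp5, Mt1, Mt2, Tsc22d3, Pdk4 and Sgk1 were 0.03, -0.02, 0.03, 0.15, 0.17 and 0.30. The summed level of the 9 genes was 713 to 932 CPM in the control pools and 824 to 1005 CPM in the olanzapine pools. The part of either group in the Per values was not tested.

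Cry1 and Cry2 encode the cryptochromes, the repressors that bind PER. Cry1 had 21.0, 26.4 and 24.6 CPM across the control pools and 21.1, 27.3 and 26.95 CPM across the olanzapine pools. Pool 1 was the lowest of its group in both diets. The log2FC was 0.07 with an interval of -0.24 to 0.37. Cry2 had 122, 129.9 and 119 CPM in the control pools and 148, 123 and 132 CPM in the olanzapine pools. Olanzapine pool 1 was the highest, and the log2FC of 0.12 had an interval of -0.08 to 0.31 (edgeR, adjusted p = 0.514). Without that pool the log2FC of Cry2 was 0.04.

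The REV-ERB genes varied least between pools. Nr1d1 had 106, 102 and 107 CPM in the control pools and 97.0, 105 and 109 CPM in the olanzapine pools, and Nr1d2 had 111, 117 and 118 CPM and 112, 114 and 121 CPM in the same order. Control and olanzapine pools were interleaved in both genes. The log2FC of Nr1d1 was -0.02, or slightly positive when log2 FPKM were fitted with limma, and its interval ran from 0.885-fold to 1.11-fold. That of Nr1d2 was 0.00, with an interval from 0.902-fold to 1.11-fold. Exons of Nr1d1 share 263 bases with Thra on the opposite strand, 8.55% of the exon bases of Nr1d1, and the strand setting of the counts is not given in the sources used here.

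Dbp and Tef encode transcription factors of the PAR bZIP family that bind the D-box. Dbp had 65.7, 83.8 and 83.6 CPM across the control pools and 68.6, 92.3 and 87.6 CPM across the olanzapine pools, so that pool 1 was the lowest of its group in both diets, as in Cry1. Its log2FC was 0.09, with an interval of -0.22 to 0.40 (edgeR, adjusted p = 0.779). Sphk2 overlaps 539 bases, or 18.0%, of the exons of Dbp on the opposite strand. Tef, the most abundant of the 10, had 281, 323 and 294 CPM in the control pools and 312, 281 and 307 CPM in the olanzapine pools. Its means of 299 ± 21.4 CPM (SD, n = 3) and 300.1 ± 16.6 CPM (SD, n = 3) gave a log2FC of 0.00, with an interval from 0.883-fold to 1.14-fold.

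The pool order of Cry1 and Dbp, noticed after the values were seen, was that of the striatal markers. Their summed level was 809, 1388 and 1048 CPM across the control pools and 828, 1714 and 1632 CPM across the olanzapine pools. In all 3 quantities control pool 1 was the lowest, followed by olanzapine pool 1, control pool 3, control pool 2, olanzapine pool 3 and olanzapine pool 2. The part of the dissection in these 2 genes was not tested.

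**Figure D2:**
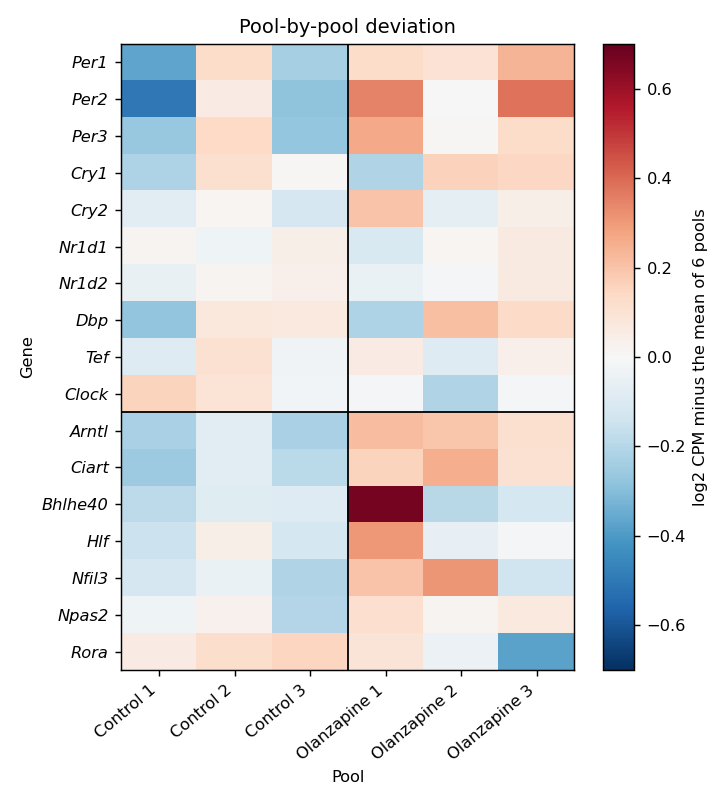
Log2 CPM minus the mean of the 6 pools (colour scale, red higher and blue lower) for the 10 clock genes above the horizontal line and 7 other clock genes below it, by pool (x axis, control pools left of the vertical line). The 3 Per genes were lowest in control pools 1 and 3, Cry1 and Dbp were lowest in pool 1 of both groups, and Bhlhe40 was high in olanzapine pool 1.

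Clock, the gene of the activator, was the member with the lowest log2FC. It had 96.6, 92.6 and 85.5 CPM in the control pools and 85.9, 74.9 and 85.7 CPM in the olanzapine pools. Control pool 3 lay just under 2 of the olanzapine pools. The mean was 91.6 ± 5.64 CPM (SD, n = 3) in the control group and 82.2 ± 6.26 CPM (SD, n = 3) in the olanzapine group, a log2FC of -0.16 ± 0.08, with an interval of -0.35 to 0.03 (edgeR, adjusted p = 0.371). Without olanzapine pool 2 it was -0.10. Npas2, which can take the place of Clock, had means of 48.7 ± 4.06 CPM (SD, n = 3) and 53.4 ± 1.83 CPM (SD, n = 3), a log2FC of 0.13 (edgeR, adjusted p = 0.440), which was 0.07 without control pool 3.

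The other genes of the clock were described by 3 lists of 27 genes in all, of which all 27 could be tested. With edgeR's quasi-likelihood test 0 of the 27 were called, against 2.32% of all genes, and 8 had an unadjusted p under 0.05, against 17.6%. DESeq2 called 3 of them, namely Arntl, Arntl2 and Gsk3b, against 5.79% of its genes, and limma on log2 FPKM called 0. The groups did not overlap in 10 of the 27, 5 higher and 5 lower in the olanzapine pools, against 24.3% of all genes.

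Among the 11 transcription factors, Arntl, the partner of Clock, had 26.5, 29.4 and 26.5 CPM in the control pools and 36.0, 35.4 and 33.5 CPM in the olanzapine pools. Every olanzapine pool lay above every control pool. The log2FC was 0.35 ± 0.08, with an interval of 0.17 to 0.53. Its adjusted p was 0.0671 in edgeR's quasi-likelihood test and 0.0275 in DESeq2, and it ranged from 0.0275 to 0.304 over the 15 alternatives. The FPKM of Arntl imply a gene model of about 21392 bases, against 7523 exon bases in GENCODE, so its counts may include reads outside the exons annotated there. Arntl2, its less abundant paralog, which is named here after its values were seen, had 1.95 ± 0.247 CPM (SD, n = 3) in the control group and 3.90 ± 0.918 CPM (SD, n = 3) in the olanzapine group, a log2FC of 1.00 (edgeR adjusted p = 0.0865, DESeq2 adjusted p = 0.0146, range over the alternatives 0.0146 to 0.242). With limma on log2(FPKM + 1), a scale that understates the change of low genes, the log2FC of Arntl2 was 0.46 and that of Arntl 0.23.

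Ciart, a repressor of the CLOCK and BMAL1 pair, had 8.72, 9.88 and 9.11 CPM in the control pools and 11.6, 12.4 and 11.2 CPM in the olanzapine pools. The groups did not overlap, and the log2FC of 0.35 had an interval of 0.07 to 0.62 (edgeR, adjusted p = 0.182). Bhlhe40, which encodes the repressor DEC1, had 72.7 to 77.8 CPM in the control pools, 131.6 CPM in olanzapine pool 1 and 72.3 and 75.9 CPM in the other 2 olanzapine pools. Its log2FC of 0.29 became -0.04 without olanzapine pool 1, the pool with high cortical markers. Hlf, the third PAR bZIP gene, was highest in that pool too, at 155 CPM against 113 to 129 CPM elsewhere, and its log2FC of 0.16 was 0.04 without it. Nfil3, which competes with the PAR bZIP factors at the D-box, had a log2FC of 0.26 (edgeR, adjusted p = 0.409), and Rora, an activator of Arntl, had -0.21 (edgeR, adjusted p = 0.405). With 1 pool left out, Rora ranged from -0.31, without olanzapine pool 1, to -0.09, without olanzapine pool 3, and Nfil3 from 0.16, without olanzapine pool 2, to 0.38, without olanzapine pool 3.

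The Arntl and Nr1d1 transcripts peak at opposite times of the day in most tissues. The log2 ratio of Arntl to Nr1d1 counts was -1.998, -1.79 and -2.02 across the control pools and -1.43, -1.57 and -1.70 across the olanzapine pools. The means differed by 0.37. No p is given, since the test planned for such values, an exact permutation of 3 against 3 pools, cannot go under 0.1. The ratio is not independent of the Arntl levels above. Over the 6 pools Nr1d1 ranged from 97.0 to 109 CPM and Arntl from 26.5 to 36.0 CPM.

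**Figure D3:**
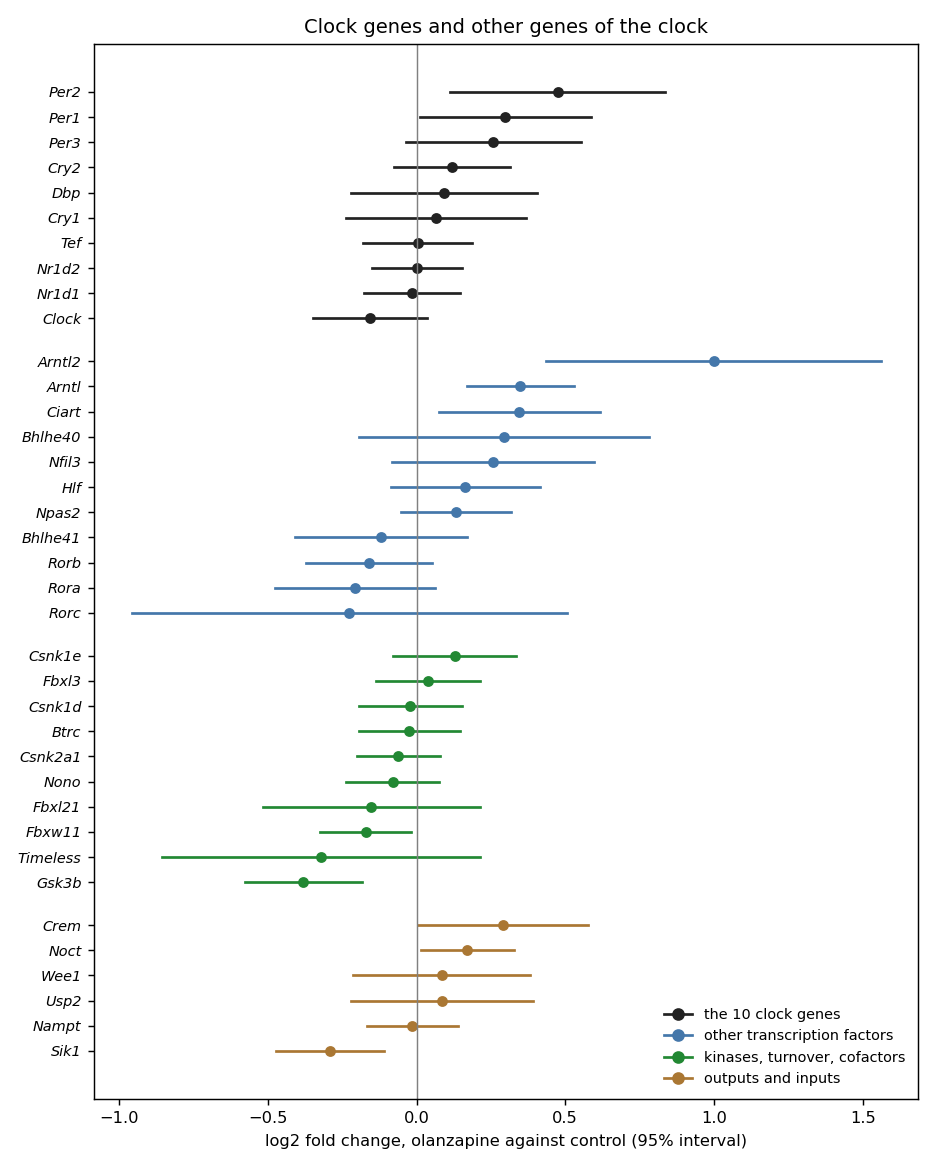
Log2 fold change of olanzapine against control (x axis, point) with its 95% interval (line) for the 10 clock genes and 27 other genes of the clock, by list. Among the 10, only the intervals of Per1 and Per2 left out 0, and none of the 37 genes had an adjusted p under 0.05 in edgeR's quasi-likelihood test.

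Casein kinases mark PER proteins for breakdown. Csnk1d and Csnk1e had log2FCs of -0.02 and 0.13 (edgeR, adjusted p = 0.916 and 0.504), and the former turned above 0 without control pool 2 or olanzapine pool 2. Without olanzapine pool 1 the log2FC of Csnk1e was 0.04. Gsk3b, a kinase that acts on several clock proteins and in many other pathways, is named after its values were seen. It had 242, 233 and 217 CPM in the control pools and 190, 160.01 and 181 CPM in the olanzapine pools, without overlap. The log2FC was -0.38 ± 0.09 (edgeR adjusted p = 0.0663, DESeq2 adjusted p = 0.00448, range over the alternatives 0.00448 to 0.215), and it passed the edgeR test with upper-quartile normalization at -0.38 (adjusted p = 0.0443) and without olanzapine pool 1 at -0.44 (adjusted p = 0.0325). Fbxw11, which encodes a part of the ubiquitin ligase that takes up PER proteins, had a log2FC of -0.17 (edgeR, adjusted p = 0.234). Of the 10 genes of this list, 8 had a negative log2FC, and the list's median was -0.07.

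Of the 6 outputs and inputs, 3 had an unadjusted p under 0.05, 2 higher and 1 lower, against 17.6% of all genes, and they are named here because of that p. Sik1, a kinase gene induced by cAMP that limits shifts of the clock, had 39.9 ± 1.47 CPM (SD, n = 3) in the control group and 32.7 ± 2.29 CPM (SD, n = 3) in the olanzapine group, a log2FC of -0.29 (edgeR, adjusted p = 0.115). Noct, which encodes nocturnin, had a log2FC of 0.17 (edgeR, adjusted p = 0.245), and Crem, a cAMP-responsive transcription factor, had 0.29 (edgeR, adjusted p = 0.279), or 0.19 with limma on log2(FPKM + 1).

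Levels can be compared between genes only per length, for which the deposited FPKM were used, as means over all 6 pools. The order was Tef at 42.9 ± 2.29 FPKM (SD, n = 6 pools of both groups), Nr1d1 at 37.8 ± 1.90, Dbp at 31.8 ± 4.74, Cry2 at 31.1 ± 2.38, Nr1d2 at 23.8 ± 0.985, Per1 at 11.0 ± 1.81, Clock at 8.56 ± 0.599, Per2 at 7.96 ± 1.85, Cry1 at 6.18 ± 0.819 and Per3 at 5.32 ± 0.806 FPKM. The output and REV-ERB genes with Cry2 thus formed an upper part of the order, and the Per genes, Clock and Cry1 a lower one. Cry2 and Nr1d2, and Nr1d2 and Per1, had ranges over the 6 pools that did not overlap, while every other pair of neighbours overlapped. The order of group means was the same in both groups except for Clock and Per2. Clock had 8.96 ± 0.472 and Per2 6.61 ± 1.35 FPKM (SD, n = 3) in the control pools, and Clock had 8.16 ± 0.444 and Per2 9.31 ± 1.13 FPKM (SD, n = 3) in the olanzapine pools. The lengths behind the FPKM differed from GENCODE in some genes. The FPKM of Per1 imply about 9519 bases against 5631 exon bases, the widest gap among the 10. Rescaled to the GENCODE exon lengths, an alternative chosen after seeing the data, Per1 would have 18.6 FPKM and keep its place. Nr1d2 at 23.7 FPKM would then come before Cry2 at 22.6 FPKM, and Clock at 7.02 FPKM would come after Per2 at 9.22 and Cry1 at 8.17 FPKM.

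**Figure D4:**
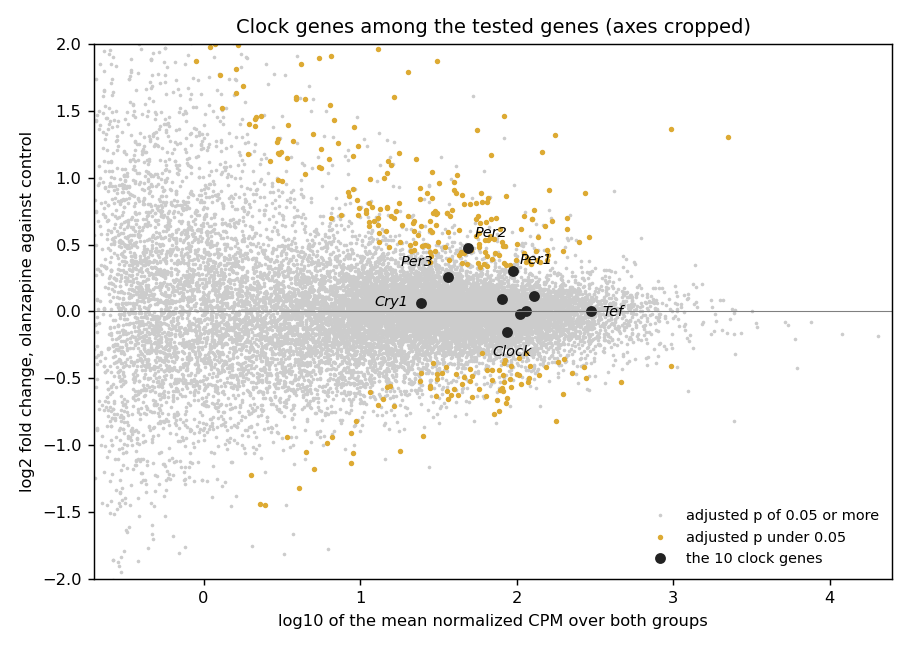
Log2 fold change (y axis) against the log10 of the mean normalized CPM (x axis) for the tested genes, with 195 of 17255 outside the axes, genes with an adjusted p under 0.05 in yellow and the 10 clock genes in black. Per2 was the highest of the 10 and lay inside the grey cloud, and Clock lay slightly below the middle of that cloud.

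The spread between pools of the same group also differed among the members. The SD of log2 CPM within groups was 0.05 in Nr1d2 and 0.07 in Nr1d1, against a median of 0.14 over 14279 genes with a mean of at least 50 counts. It was highest in Per2 at 0.25 and Dbp at 0.22, and lay at 0.19 in Per1, Per3 and Cry1. Cry2, Clock and Tef lay between 0.09 and 0.11. The members with the widest spread were therefore those with the widest intervals, and a difference of the size seen in Per2 would have stood well outside the interval of Nr1d2.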

How the data were processed

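Septal RNA of 6 pools was sequenced as paired-end libraries. Per the labels and the study's methods, the authors trimmed reads with fastp, aligned them with HISAT2 to mm10 and deposited raw HTSeq-count counts per gene. The authors also deposited FPKM per gene. Tool versions, gene annotation and strand setting are not given in the sources used here, so genes that overlap on opposite strands are uncertain. Columns named MetS are the olanzapine pools. Library totals were 38208153 to 39868872 counts.

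Counts were TMM-normalized, filtered with filterByExpr (minimum count 10, minimum total 15) and compared by diet alone in edgeR's quasi-likelihood test (version 4.0.16, R 4.3.3), with Benjamini-Hochberg adjustment over 17255 genes. The standard error was the log2 fold change divided by the square root of F, and 95% intervals used the degrees of freedom of that test. The scripts were tested on simulated data. Alternatives were RLE and upper-quartile normalization, DESeq2 1.42.0, other filters, a replicate block, limma 3.58.1 on log2 FPKM, other thresholds and leaving out each pool. The genes of the clock, the marker lists and the naming rule were chosen with earlier results of these data known. The rule named the 10 members, 9 fixed genes of the other clock lists and any other called gene, at most 2 genes of each marker list by count with the defining hepatocyte genes, and the genes most like the members in pattern. Vip, Npas4, Arntl2, Gsk3b, Fbxw11, Sik1, Noct and Crem were named after their values were seen. The same holds for the other named markers of the suprachiasmatic nucleus and for the named glucocorticoid targets. Gene positions and exon lengths came from GENCODE M21 (GRCm38, the same build as mm10). The length behind an FPKM was inferred from the ratio of counts to FPKM, scaled so that the median of 13804 protein-coding genes matched its exon length.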

Additional observations from a re-analysis of the deposited data

How the results depend on the processing

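The number of the 10 clock genes called stayed at 0 under all alternatives that kept the adjusted p, and was 2 with an unadjusted p under 0.05. Of 150 refitted log2 fold changes of the 10 genes, 130 kept their direction and stayed uncalled, and 20 changed sign, in Cry1, Nr1d1, Nr1d2, Dbp and Tef. Those of Nr1d1 were 0.00512, 0.005184 and 0.00512 with limma on log2(FPKM + 1), on log2(FPKM + 0.1) and without its filter. Those of Nr1d2 and Tef were -0.002423 and -0.0007078 with RLE size factors, -0.003892 and -0.002241 with DESeq2, and -0.003806 and -0.002348 without a count filter. With 1 pool left out, Cry1 ranged from -0.02311 to 0.177, Nr1d1 from -0.0537 to 0.02925, Nr1d2 from -0.03131 to 0.0262, Dbp from -0.01695 to 0.2096, Tef from -0.04171 to 0.06512, Bhlhe40 from -0.03852 to 0.4465 and Csnk1d from -0.08226 to 0.02859.

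Of the other 27 clock genes, 1 was called with upper-quartile normalization (Gsk3b), 3 with DESeq2, 8 with an unadjusted p, and 0 to 1 with 1 pool left out, the 1 being Gsk3b without olanzapine pool 1. Over all tested genes, 401 were called, and 1097 with DESeq2, 240 with limma on log2(FPKM + 1) without its filter, 174 with a log2 fold change beyond 1, 3035 with an unadjusted p, and 131 to 508 with 1 pool left out. With the replicate block 140 were called over all genes and 0 of the 10 clock genes. The labels do not say whether pools of the same number belong together. The correlation of deviations between same-numbered pools was -0.00262, 0.0616 and -0.255, and no pool correlated best with its own number. With 3 pools per group these correlations cannot tell whether same-numbered pools were handled together. The cause of the shifts in the number of genes called was not tested. The rank of a level in CPM, which is not per length, differs from that in FPKM for several members. With 3 pools per group and mice pooled, the intervals of Per1, Per2, Per3, Cry1 and Dbp were wide, and the hour of sampling was not given, so that its part was not tested.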

Other observations

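The genes outside the clock lists that lay nearest to the Per genes from pool to pool were also looked up. The Per genes were used because no member was called and they had the largest log2 fold changes. Likeness was measured as the root mean square difference of log2 CPM, centred over the 6 pools, among 14242 genes with a mean of at least 50 counts. The nearest to Per1 were Fbxl12 at 0.0392, Cep95 at 0.0442 and Ano3 at 0.0509. The nearest to Per3 were Nckap5l at 0.0369, Mn1 at 0.0460 and Traf7 at 0.0512. The nearest to Per2 were 1110019D14Rik at 0.0814, Hspa1b, which encodes an inducible heat shock protein, at 0.0884 and Baiap2, which encodes a postsynaptic scaffold protein, at 0.0890. Baiap2 had 171, 232 and 184 CPM in control pools 1 to 3 and 300, 262 and 286 CPM in olanzapine pools 1 to 3, so that its groups did not overlap while those of Per2 did. Its log2 fold change was 0.53 (edgeR, adjusted p = 0.0661). The measure has no test, and all genes share the same 6 libraries. With 14242 candidates and 6 pools, near neighbours follow from the selection, so the distances show no link to the Per genes.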
